A study of Mus musculus with 2 samples.

Results

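The genes for eosinophil granule proteins and eosinophil-associated ribonucleases (Prg2, Prg3, Epx, Ear1, Ear2 and Ear6) were followed in single promyelocytes from leukemic bone marrow of mice. They were taken by symbol, which found 6 of the 32285 genes listed in both count matrices, and 4 of the 6 had more than 3 molecules in a library. All cells came from mice with leukemia driven by PLZF/RARA, a fusion of the zinc finger protein PLZF with the retinoic acid receptor alpha, and both groups carried it. One group received retinoic acid (0.8 to 1 mg by intraperitoneal injection) and the other its vehicle (corn oil with 10% DMSO by the same route), for 7 days, in cohorts of 3 to 5 mice. Late promyelocytes, sorted as CD34- cells that carried FcγR, Gr1, c-Kit and CD45.2, were captured in droplets at a target of 6000 cells, and each group gave 1 library. The labels do not give the strain, the age, the promoter that drives the fusion, or how many mice entered a library.

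Eosinophils store cationic proteins in large granules and release them against parasites and in allergic inflammation. PRG2 is major basic protein, which forms the crystalline core of the granule, and PRG3 is its homologue. EPX is eosinophil peroxidase, a haem enzyme related to myeloperoxidase (MPO) of neutrophils, and the Ear genes encode small secreted ribonucleases of the RNase A family. Transcripts of the granule proteins are made early, in eosinophil promyelocytes and myelocytes, under GATA1, C/EBP factors and PU.1. Camp (cathelicidin, a protein of secondary neutrophil granules), Elane (neutrophil elastase, of primary granules) and Cpa3 (carboxypeptidase A3, of mast cells and basophils) mark the neighbouring lineages used here for comparison.

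On GRCm38, Prg2 (chr2:84980461-84983632, plus strand) and Prg3 (chr2:84988215-84993886, plus strand) lie 4583 bases apart. Epx (chr11:87864000-87875536, minus strand) lies 59587 bases beyond Mpo and 35711 bases beyond Lpo, the lactoperoxidase gene. Ear1 (chr14:43818765-43875517, minus strand), Ear2 (chr14:44102654-44103534, plus strand) and Ear6 (chr14:51853699-51854643, plus strand) lie on chromosome 14. Ear1 and Ear2 are near-identical copies, which bears on how their molecules can be assigned, while Ear6 is more distant. The last 60 coding bases of 4 family members, without the stop codon, are shown for that reason, from GENCODE M21 on the coding strand, with bases that differ from Ear1 at the same position in capitals (chr14:43818945-43819004, chr14:44103295-44103354, chr14:51854403-51854462 and chr14:51255442-51255501):
Ear1: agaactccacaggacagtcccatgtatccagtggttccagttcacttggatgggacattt
Ear2: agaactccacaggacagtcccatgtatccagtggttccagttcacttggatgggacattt
Ear6: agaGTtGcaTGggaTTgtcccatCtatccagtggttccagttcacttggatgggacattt
Rnase2a: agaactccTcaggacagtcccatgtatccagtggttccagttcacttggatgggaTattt
Ear1 and Ear2 did not differ in this stretch, Ear6 differed from Ear1 at 8 bases and Rnase2a at 2. Over the whole coding sequence Ear1 was 95.1% identical to Ear2 and 87.3% identical to Ear6. Of the 311 windows of 90 bases in the last 400 bases of the transcript, 31.5% of those of Ear1 and 1.29% of those of Ear2 occurred unchanged in a transcript of another gene, while 0 of those of Ear6, Prg2, Prg3 and Epx did. How the authors' counting treated reads that fit 2 copies is not given in the sources used here, so the values of Ear1 and Ear2 are uncertain.

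RefSeq promoters (GRCm38.p6) matched 5 of the 6 genes. The 150 bases before the RefSeq start site were searched in these 5, and are shown for Prg3 and Epx, whose levels moved in the same direction between the libraries. For Ear1 and Ear6 the RefSeq start site lies inside the GENCODE gene given above, so that their windows are not all outside the transcript. Capitals mark matches to 4 motifs searched on both strands. AGATAA is bound by GATA factors. TTNNGNAA is bound by C/EBP factors. GAGGAA is bound by PU.1 and its relatives. TATAAA is the TATA box. The regions are chr2:84988065-84988214 (plus) and chr11:87875537-87875686 (minus).
Prg3: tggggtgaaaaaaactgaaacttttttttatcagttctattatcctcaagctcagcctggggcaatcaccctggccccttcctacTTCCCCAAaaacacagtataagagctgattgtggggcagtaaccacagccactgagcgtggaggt
Epx: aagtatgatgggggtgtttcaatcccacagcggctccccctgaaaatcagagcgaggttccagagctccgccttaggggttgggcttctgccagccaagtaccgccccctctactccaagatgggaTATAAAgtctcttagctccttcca
TTNNGNAA was found in Prg3, Ear1, Ear2 and Ear6, and in 22.7% of the 32851 promoters in the table. The Ear1 window was 97.4% identical to that of Ear2 and 72.9% to that of Ear6. The matches in the Ear genes are therefore not independent of one another. TATAAA was found in Epx alone of the 5, at 24 bases before the start site, and in 7.57% of all. AGATAA (5.65% of all) and GAGGAA (14.5% of all) had 0 matches in the 5 windows, and no matches overlapped. Other forms of these motifs were not searched, so sites of the same factors in the windows are not excluded.

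After filtering, 5476 vehicle cells (median 16749.5 molecules per cell) and 7140 retinoic acid cells (median 14604) remained, with 99107718 and 110088247 molecules in all. A molecule is counted once by its unique molecular identifier (UMI), and CPM is the share of the UMIs of a library that belong to a gene, on the usual counts-per-million scale. Because the chemistry tags the 3′ end of each RNA, CPM needs no correction for gene length. The libraries differed far beyond the 6 genes: Camp stood at 175 CPM with vehicle and 18200 CPM with retinoic acid, Elane at 62.8 and 7663 CPM, and Cpa3 at 570 and 0.0999 CPM. Kept cells of the libraries shared 11 barcodes. With 1 library per group no test of the treatment was possible, and every interval below (95%) covers counting error only. Differences between mice, sorts and preparations cannot be told apart from the treatment, nor fewer cells from less RNA per cell in library sums.

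All 4 detected genes were lower in the retinoic acid library. Epx, the peroxidase, gave 5483 UMIs with vehicle and 652 with retinoic acid, or 55.3 and 5.92 CPM. Its level was 9.34-fold lower after retinoic acid, a log2 ratio of -3.22 (-3.34 to -3.11), the largest difference among the 4. Prg3, the homologue of major basic protein, gave 916 and 279 UMIs, or 9.24 and 2.53 CPM, a log2 ratio of -1.86 (-2.07 to -1.67). Ear6, the only ribonuclease of the 3 Ear genes with more than 3 molecules, gave 403 and 168 UMIs, or 4.07 and 1.53 CPM, a log2 ratio of -1.41 (-1.68 to -1.15).

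Prg2, the major basic protein gene, gave 4524 and 2253 UMIs, or 45.6 and 20.5 CPM, a log2 ratio of -1.16 (-1.23 to -1.08). One cell decided this value. It held 1456 of the 2253 Prg2 UMIs of the retinoic acid library, and without the cell richest in the 6 genes in each library the log2 ratio of Prg2 was -2.43. Without that cell the ratio of Prg3 was -2.43 and that of Epx -3.83. The order of the genes by their ratio therefore changed with 1 cell, whereas the direction did not.

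Ear1 had 2 UMIs, both in 1 vehicle cell, and 0 in the retinoic acid library. Ear2 had 0 there and 1 in the retinoic acid library. These are at or under 3 counts, the number that a count of 0 allows (0.0303 CPM with vehicle, 0.0273 CPM with retinoic acid), so no ratio is given. Within a library, the order of levels in the vehicle was Epx, Prg2, Prg3 and Ear6, with intervals that did not overlap, and in the retinoic acid library Prg2, Epx, Prg3 and Ear6.

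**Figure D1:**
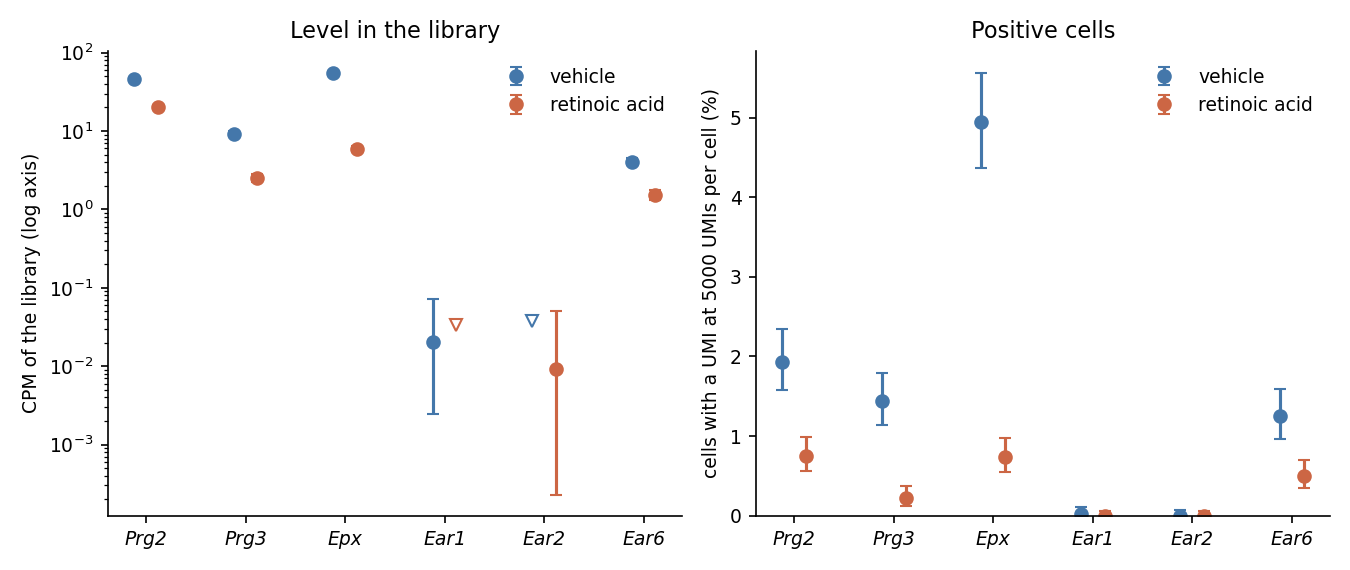
Left, level of each gene in the vehicle and retinoic acid libraries in CPM on a log axis. Right, percent of cells with at least 1 UMI after thinning to 5000 UMIs per cell. Points are 1 library each, bars are exact 95% counting intervals, and open triangles are the upper limits of a count of 0. Epx lies at 55.3 and 5.92 CPM, and the points of Ear1 and Ear2 rest on 2 UMIs and 1 UMI.

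Across the whole table, 5548 genes had at least 20 CPM in a library, and 448 of them (8.07%) differed at least 2-fold, 280 of them (5.05%) by being lower after retinoic acid. Of the 6 genes, Prg2 and Epx reached 20 CPM, and both were at least 2-fold lower. Prg3, Ear6, Ear1 and Ear2 did not reach the limit.

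Positive cells were compared after each cell was thinned to 5000 UMIs, for which 194 vehicle and 481 retinoic acid cells were too shallow, and 5282 and 6659 remained. At least 1 of the 6 genes was found in 326 vehicle cells (6.17%, 5.54 to 6.85) and in 117 retinoic acid cells (1.76%, 1.46 to 2.10). Without thinning the shares were 11.6% and 4.45%. Epx was positive in 261 vehicle cells (4.94%) and 49 retinoic acid cells (0.736%). Prg2 was positive in 102 (1.93%) and 50 (0.751%). Prg3 was positive in 76 (1.44%) and 15 (0.225%), and Ear6 in 66 (1.25%) and 33 (0.496%). Epx was thus the most widespread of the genes among vehicle cells, while Prg2 and Epx were found in similar numbers of retinoic acid cells.

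The share in the retinoic acid library was close to that of its Camp-rich cells, which are part of it. In the quartile richest in Camp (174 to 775 Camp UMIs of 5000), where eosinophil granule genes would not be looked for, 1.68% (1.12 to 2.42) had a UMI of 1 of the 6 genes, against 1.76% in the library at the same depth. From the lowest to the highest Camp quartile the share was 3.18% (2.39 to 4.14), 1.14%, 1.02% and 1.68%, and so was highest where Camp was lowest. Because the cells richest in Camp also had such UMIs, the library share is not read as expression of the genes across the library. The part of free RNA, doublets or low transcription in it was not tested. No cell of the quartile richest in Camp held more than 2 UMIs of the 6 genes. In the vehicle library, 2.37% (1.45 to 3.64) of Elane-positive cells had a UMI of 1 of the 6 genes, against 6.90% (6.17 to 7.68) of cells without Elane.

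The UMIs of the 4 genes sat in few cells. In the vehicle library, the 1% of cells richest in a gene (55 cells) held 90.5% of the Prg2 UMIs, 82.3% of Prg3, 70.5% of Ear6 and 59.0% of Epx. In the retinoic acid library the richest 1% (72 cells) held 95.9% of Prg2, 100% of Prg3, 90.5% of Ear6 and 89.0% of Epx. The same share of cells held 8.69% of the Cpa3 UMIs in the vehicle library, and 5.53% of Camp and 4.54% of Elane in the retinoic acid library. Camp was itself concentrated in the vehicle library, at 90.1%. The smallest number of cells that held 50% of the UMIs in the vehicle library was 9 for Prg2, 21 for Prg3, 27 for Ear6 and 40 for Epx.

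**Figure D2:**
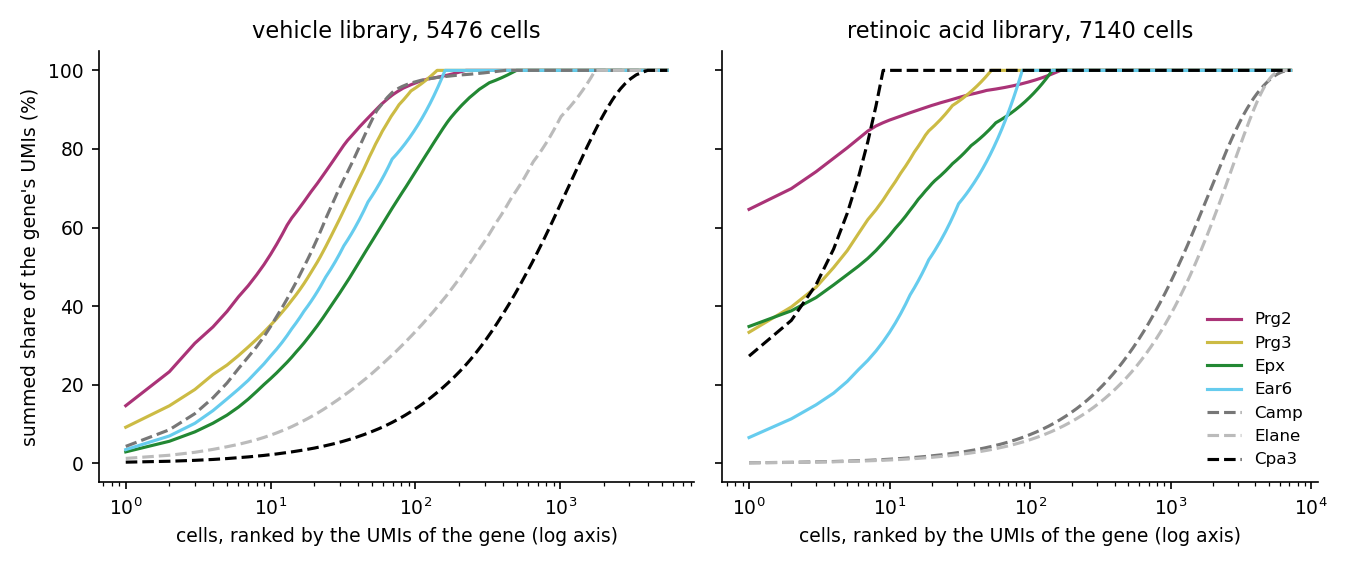
Cells of each library were ranked by the UMIs of a gene, and the summed share of its UMIs is plotted against the number of cells on a log axis. Solid lines are Prg2, Prg3, Epx and Ear6, and dashed lines are Camp, Elane and Cpa3. The Prg2 line of the retinoic acid library starts at 64.6%, the share of 1 cell, and the Cpa3 line there rests on 11 UMIs.

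The richest cell of the retinoic acid library held 1456 UMIs of Prg2, 93 of Prg3, 227 of Epx and 0 of Ear6 among its 13834 UMIs, so that the 6 genes made up 12.8% of its RNA. It held 5 UMIs of Camp, 0 of Elane and 1 of Cpa3. The richest vehicle cell held 663 UMIs of Prg2, 12 of Prg3, 25 of Epx and 0 of Ear6 among 4211 UMIs, with 0 of Camp, 0 of Elane and 8 of Cpa3. Both cells were rich in the 3 granule protein genes and held few or no UMIs of Camp and Elane. Such low counts were common with vehicle, where 7.69% of the cells without the 6 genes held Camp and 33.9% Elane. Next in the retinoic acid library came a cell with 119 UMIs of Prg2, 12 of Prg3, 4 of Epx and 2 of Ear6 among 1641, with 1 UMI of Camp.

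Pairs of the 4 genes met in the same cells more often than independence gives, although most positive cells held 1 gene only. At 5000 UMIs this was so for 220 of the 326 vehicle cells and 99 of the 117 retinoic acid cells. At 5000 UMIs, Prg2 and Prg3 were both found in 47 vehicle cells, where their shares alone would give 1.47 cells if independent. Epx was found in 66 of the 76 Prg3-positive vehicle cells (86.8%), against 3.76 cells if independent, and in 68 of the 102 Prg2-positive cells (66.7%), against 5.04. Ear6 and Epx shared 41 cells, against 3.26. In the retinoic acid library, Prg2 and Epx shared 10 cells (0.368 if independent), Prg3 and Epx 7 (0.110) and Prg2 and Prg3 6 (0.113). Pairs of the 4 genes thus met far more often than independence gives in each library. At least 2 of the genes were found in 106 vehicle cells (2.01%, 1.65 to 2.42) and 18 retinoic acid cells (0.270%, 0.160 to 0.427), and all 4 detected genes in 21 and 4 cells.

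Elane was found in fewer of the cells with the 6 genes than independence gives, while for Camp the number was within counting error. Of the 326 vehicle cells with a UMI of the genes, 8 had Camp (11.9 if independent), a ratio of 0.672 whose counting interval (3.45 to 15.8 cells) held the independent value. Elane was found in 20 of the 326 (52.1 if independent, interval 12.2 to 30.9) and Mpo in 44 (71.3 if independent, interval 32.0 to 59.1). For Epx and its chromosomal neighbour Mpo the shared cells were 29, against 57.1. The related peroxidase genes were thus found together less often than independence gives.

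After retinoic acid nearly every cell held Camp, 6559 of 6659, and most held Elane, 6201. Presence alone therefore separated little. Camp was found in 109 of the 117 cells with a UMI of the genes (115 if independent), and Elane in 86 (109 if independent, interval 68.8 to 106). The level of the genes also differed with the amount of Camp. By quartile of cells from the lowest to the highest Camp count, the summed level of the 6 genes was 108, 3.12, 2.76 and 3.85 CPM. The highest cell held 636 UMIs of the genes in the lowest quartile and 3, 3 and 2 in the others. That cell held most of the 900 UMIs of its quartile. Without the richest cell the log2 ratio of the highest over the lowest quartile was -3.02, against -4.79 with it. In cells with and without Elane the summed level was 7.32 and 329 CPM, and in cells without Elane it was 51.6 CPM once the richest cell was left out.

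Cpa3 went the other way. In the vehicle library, 247 of the 326 cells with a UMI of the genes also held Cpa3 (75.8%), against 189 if independent (interval 217 to 280 cells). The summed level of the 6 genes was 200 CPM in cells with Cpa3 and 56.6 CPM in cells without. Cpa3 was itself present in 3068 of 5282 vehicle cells, and 8.05% of those held a UMI of the genes. In the retinoic acid library only 3 cells held Cpa3 at this depth, and 1 of them was the richest cell.

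**Figure D3:**
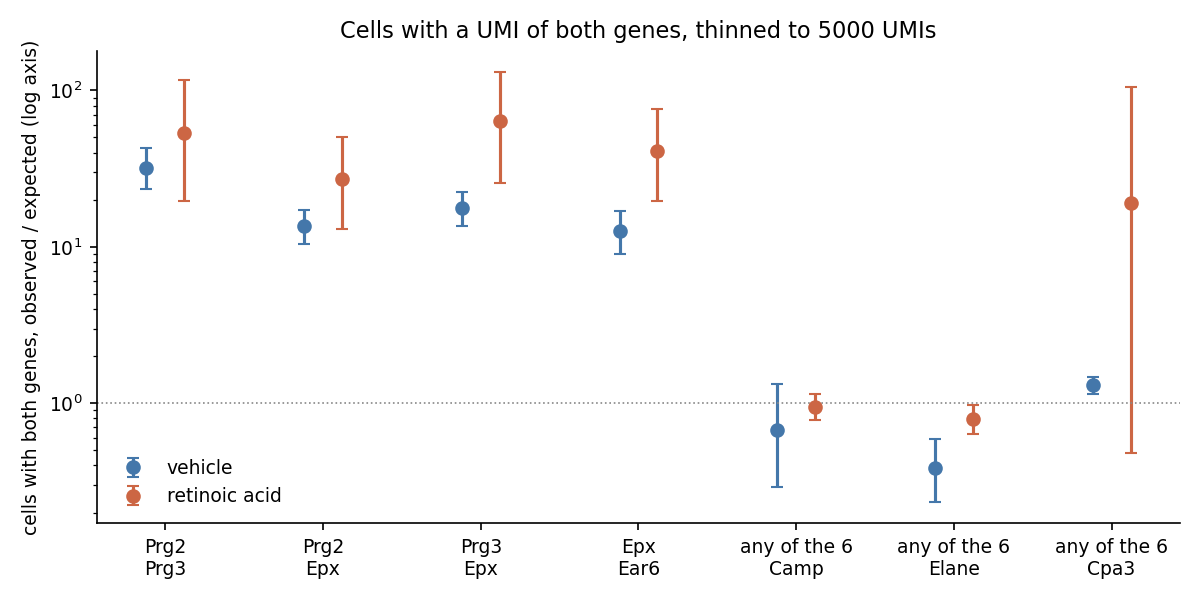
Cells with a UMI of both genes of a pair, divided by the number that independence gives, at 5000 UMIs per cell on a log axis. Points are 1 library each, bars are exact 95% Poisson intervals of the observed number, and the dotted line marks 1. Pairs of the 4 genes lie above 10 in both libraries, the pairs with Camp and Elane lie below 1, and vehicle Cpa3 lies at 1.30.

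Cells were then divided by their UMIs of the 6 genes without thinning, a division chosen after the data were seen. In the vehicle library 190 cells (3.47%) held 10 or more, 447 held 1 to 9 and 4839 held 0. After retinoic acid these numbers were 29 (0.406%), 289 and 6822. The cells with 10 or more held 91.2% of the vehicle UMIs of the 6 genes and 85.2% of those after retinoic acid. They were shallower than the others, with a median of 9683 UMIs against 16919 in vehicle cells without the genes, and 4924 against 14647.5 after retinoic acid. Of the 29 retinoic acid cells, 15 held under 5000 UMIs and so dropped out of the thinned counts. Cells with the top 5% of doublet scores made up 12 of the 190 and 1 of the 29.

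Within these cells, Epx was the commonest gene. It was found in 187 of the 190 vehicle cells (98.4%) and in all 29 retinoic acid cells. Prg2 was found in 120 vehicle cells (63.2%) and 26 retinoic acid cells (89.7%), so that 70 vehicle cells and 3 retinoic acid cells held Epx without Prg2. The opposite, Prg2 without Epx, was found in 3 vehicle cells and 0 retinoic acid cells. Epx UMIs outnumbered Prg2 UMIs in 133 of the 190 vehicle cells and in 11 of the 29 retinoic acid cells. Prg3 was found in 106 and 22 of these cells, and Ear6 in 73 and 17. At least 3 of the 4 detected genes were found in 103 vehicle cells (54.2%) and 25 retinoic acid cells (86.2%).

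**Figure D4:**
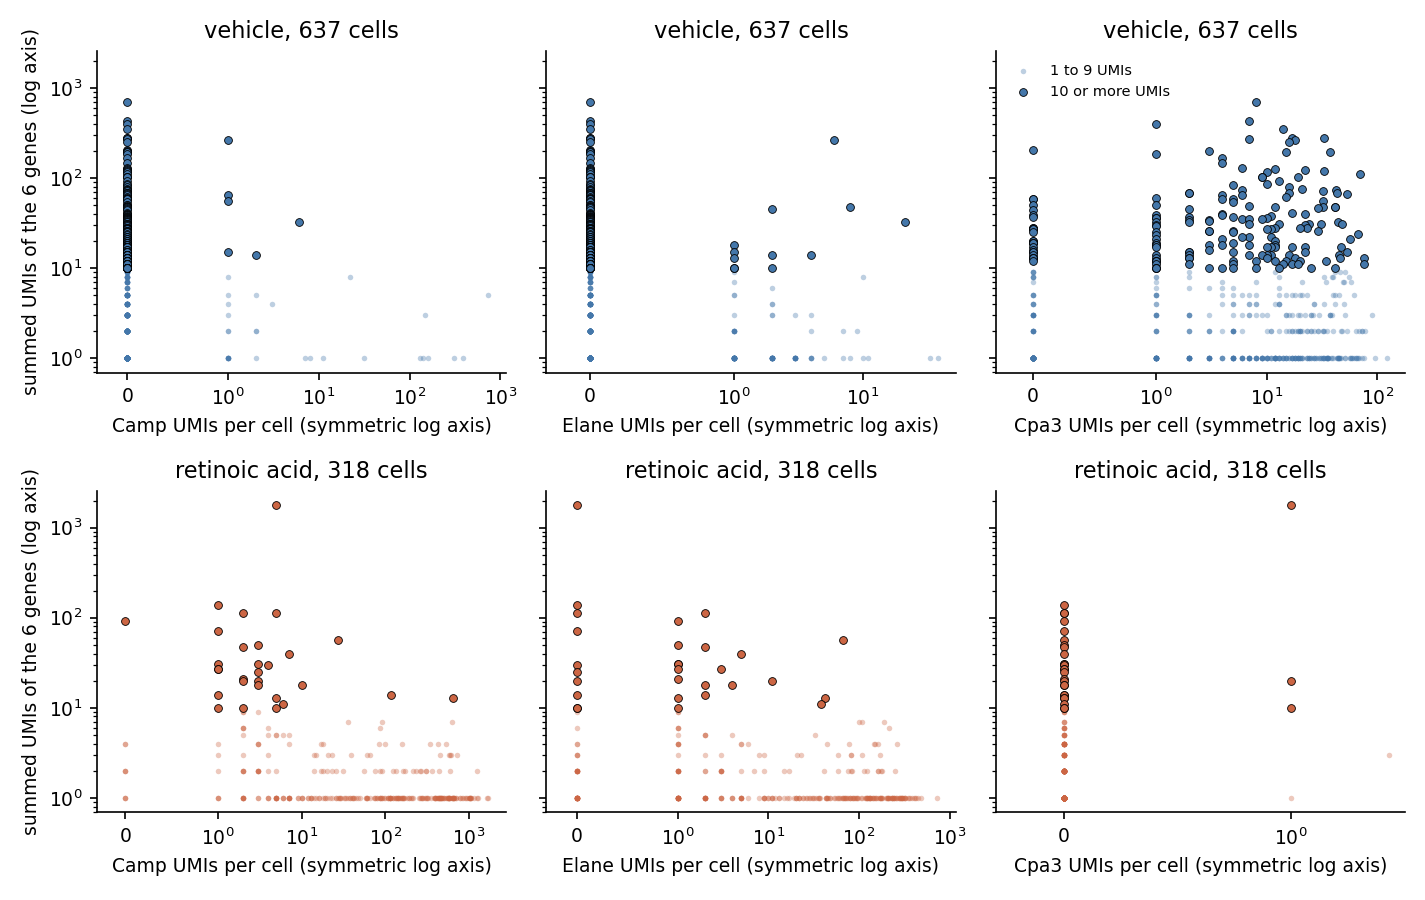
Every cell with a UMI of the 6 genes, 637 in the vehicle (top) and 318 in the retinoic acid library (bottom), by summed UMIs of the genes (log axis) and UMIs of Camp, Elane or Cpa3 (symmetric log axis), without thinning. Outlined points hold 10 or more UMIs of the genes. Of the 190 outlined vehicle cells 184 lie at 0 Camp, 178 at 0 Elane and 27 at 0 Cpa3. Of the 29 outlined retinoic acid cells 1 lies at 0 Camp, 10 at 0 Elane and 26 at 0 Cpa3.

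Neutrophil granule genes were lower in the rich cells but not absent. At least 1 UMI of Camp was found in 6 of the 190 vehicle cells and in 28 of the 29 retinoic acid cells, and of Elane in 12 and 19. In the vehicle library, Camp was at 5.20 CPM in the 190 cells and 172 CPM in cells without the genes, Elane at 21.7 and 66.4 CPM, and Mpo at 116 and 324 CPM. The Camp difference there rests on few cells. Only 7.69% of vehicle cells without the genes held Camp, and 55 cells held 90.1% of its UMIs in the library. Vehicle cells with 1 to 9 UMIs of the genes stood at 262 CPM of Camp. In the retinoic acid library, Camp stood at 3840 CPM in the 29 cells and at 18300 CPM in cells without the genes, and Elane at 817 and 7750 CPM. A median of 3 Camp UMIs was counted in the 29 cells, 1 of which held 652 of their 874, against a median of 147 in cells without the genes. Mpo had 0 UMIs in the 29 cells and 2 in the 6822 cells without the genes, so it does not separate them. How much of the Camp and Elane in these 29 cells was free RNA was not tested. The 6 secondary granule genes summed to 355 CPM in the rich vehicle cells against 1099 CPM in cells without the genes, and to 7764 against 34207 CPM after retinoic acid. The 6 primary granule genes, which define promyelocytes, summed to 5126 against 8458 CPM with vehicle and 3339 against 19042 CPM after retinoic acid. Most of the vehicle sum was Ctsg, encoding cathepsin G, at 4310 against 6547 CPM. Of the markers of other lineages, those of T and NK cells summed to 1591 CPM in the rich vehicle cells and 536 CPM in the 29 cells, all of it Nkg7, against 1261 and 571 CPM in cells without the genes. The 8 erythroid genes summed to 9.10 against 3.94 CPM with vehicle and 8.79 against 0.775 CPM after retinoic acid, and the 4 megakaryocyte genes to 78.0 against 25.9 CPM and 65.9 against 0.860 CPM. The megakaryocyte sums do not describe the list as a whole. In vehicle cells without the genes, Itga2b made up 25.8 of the 25.9 CPM. Gp1bb and Gp9 were at 0 in the rich cells of both libraries. The 6 monocyte and macrophage genes summed to 12.1 against 7.13 CPM with vehicle and 4.39 against 4.59 CPM after retinoic acid, and the 6 B lymphoid genes to 15.2 against 13.9 CPM and 39.5 against 49.3 CPM. In the 29 cells 1 UMI alone comes to 4.39 CPM, so the small sums there, such as the erythroid and monocyte ones, rest on very few UMIs. The part of cells of these other lineages in the results was not tested. Cd3e, Cd3d, Cd3g, Siglech and Cd209a were at 0 UMIs in the rich cells of both libraries. Cd3e, Siglech and Cd209a were also at 0 in the cells without the genes, and so do not separate the classes. Cd3d and Cd3g had 17 and 2 UMIs in the vehicle cells without the genes, too few to compare.

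**Figure D5:**
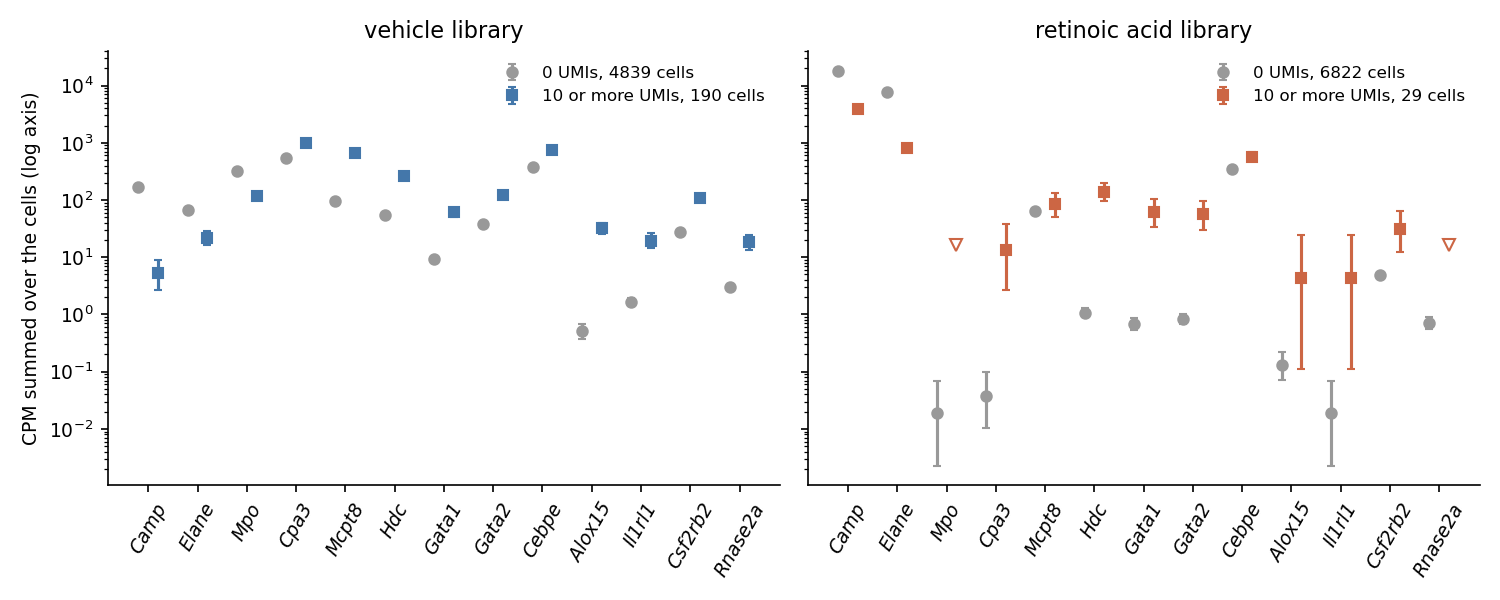
Level of lineage genes in CPM (log axis), summed over cells with 0 UMIs (grey circles) and with 10 or more UMIs (coloured squares) of the 6 genes, in each library. Bars are exact 95% Poisson intervals and open triangles the upper limits of a count of 0. Camp and Elane are lower and Hdc, Gata1 and Gata2 higher in the rich cells of both libraries.

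Some transcription factors of the eosinophil list were higher in the rich cells and others were not. Gata1, which encodes the transcription factor that directs eosinophil fate, was at 60.7 CPM in the 190 vehicle cells and 9.13 CPM in cells without the genes, and at 61.5 and 0.681 CPM in the retinoic acid library. Gata2 was at 124 and 38.8 CPM, then at 57.1 and 0.842 CPM. Cebpe, the gene for C/EBP epsilon of granulocyte maturation, was at 761 and 381 CPM with vehicle, and at 576 and 355 CPM with retinoic acid. Trib1 was at 36.4 and 11.7 CPM in the vehicle library. Cebpa, the gene for C/EBP alpha, went the other way at 29.0 (22.5 to 36.9) and 48.2 CPM, and Zfpm1 was at 15.6 (10.9 to 21.6) and 16.3 CPM. Irf8 had 0 UMIs in the rich cells and 5 in the 4839 vehicle cells without the genes, too few to compare. Spi1, which encodes PU.1, was at 213 and 171 CPM in the vehicle library, and at 132 (88.9 to 188) and 296 CPM after retinoic acid. Id1 likewise differed in direction between the libraries, at 73.2 and 45.5 CPM with vehicle and at 26.4 and 74.2 CPM after retinoic acid. Id2 was at 62.4 and 31.9 CPM with vehicle and at 39.5 and 75.04 CPM after retinoic acid, where its counting interval reached the level of the other cells. Both genes had few UMIs in the 29 cells. Whether the libraries differ in this was not tested.

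Hdc, encoding the enzyme that makes histamine, was at 261 and 54.7 CPM with vehicle, and at 141 and 1.08 CPM after retinoic acid, where the 29 cells held 32 UMIs. Mcpt8, a protease gene of basophils, was at 664 and 94.97 CPM with vehicle, and at 83.5 (50.3 to 130.4) and 63.5 CPM after retinoic acid, an interval that holds the level of the other cells. Without thinning, Mcpt8 was found there in 34.5% of the rich cells and 45.7% of the others. The rich cells were shallower (median 4924 against 14647.5 UMIs), so these shares cannot be compared. Cpa3 was at 993 and 535 CPM in the vehicle. The 11 basophil and mast cell genes summed to 1949 CPM in the 190 vehicle cells and 689 CPM in cells without the genes, and to 242 and 66.6 CPM in the retinoic acid library. Fcer1a, Tpsb2, Tpsab1 and Mcpt4, defining genes of basophils or mast cells, were at 0 UMIs in each of these classes. They therefore do not separate the classes. The other genes of the list all had UMIs in the rich vehicle cells, while Prss34, Ms4a2 and Cd200r3 were also at 0 in the 29 retinoic acid cells. The part of basophils or mast cells in the results was not tested.

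Among the surface genes and enzymes of eosinophils in the vehicle library, Alox15 (a lipoxygenase) was at 32.1 CPM in the rich cells and 0.518 CPM in cells without the genes. Il1rl1, the receptor of interleukin 33, was at 19.5 and 1.63 CPM, and Csf2rb2, a beta chain of the interleukin 3 receptor, at 107 and 28.1 CPM. Ltc4s, encoding leukotriene C4 synthase, was at 7.37 (4.29 to 11.8) and 10.1 CPM, and Csf2ra at 27.3 (21.0 to 34.9) and 24.8 CPM, so neither was higher beyond counting error. In the 29 retinoic acid cells Alox15 and Il1rl1 had 1 UMI each and Csf2rb2 had 7. The genes that define mature eosinophils were scarce. Il5ra, the interleukin 5 receptor, had 2 UMIs in the 190 vehicle cells and 0 in the 29 retinoic acid cells, and Ccr3, the eotaxin receptor, had 5 and 3. The 4839 vehicle cells without the genes held 2 UMIs of Il5ra and 7 of Ccr3. Per cell both were thus more frequent in the rich vehicle cells, on few UMIs. Siglecf had 38 UMIs in the 190 cells (16.5 against 11.04 CPM without the genes) and 0 in the 29 cells. Il5ra was therefore near the limit of detection in the cells rich in granule genes.

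The members of a gene list fixed for each role are described over the whole libraries, using genes with at least 10 counts over both. Of the other RNase A family genes, 4 of 8 were used, and all 4 were at least 2-fold lower after retinoic acid, with a median log2 ratio of -2.76. They were Rnase2a (3.83 and 0.690 CPM), Rnase4 (21.7 and 2.72 CPM), Ang (4.50 and 0.772 CPM) and Rnase6 (10 and 0 UMIs). With Rnase6 set to the bound that 3 counts give (a log2 ratio of -1.89), the median was -2.50. Of the eosinophil receptors and enzymes, 10 of 11 were used, 6 were at least 2-fold lower and 0 at least 2-fold higher, with a median of -1.35. Adgre1, which encodes F4/80, was 1 of the lower 6, at 73.7 and 5.15 CPM.

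Of the transcription factors, 10 of 11 were used, 4 were at least 2-fold lower (Gata2 at 43.2 and 1.14 CPM, Gata1 at 11.8 and 1.10 CPM, Zfpm1 and Trib1) and Id2 was higher at 33.6 and 74.7 CPM. Their median was -0.20. Over the 14561 genes with as many counts the median was -0.08, with 15.0% at least 2-fold lower and 5.72% at least 2-fold higher. For the 4 detected granule and Ear genes the median was -1.64. Mpo, at 311 CPM with vehicle, had 55 UMIs in the retinoic acid library, 53 of them in 1 cell.

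The genes most like the 6 were ranked in each library by Pearson r with their summed UMIs over cells thinned to 5000 UMIs, on the log2(UMIs + 1) scale, among genes with at least 200 UMIs. The cells share a library, and r is a description. In the vehicle library (5282 cells) the first were Rnase12, another ribonuclease A family gene (r = 0.42), Ctsh, encoding cathepsin H (0.40), Cd24a (0.34) and Mcpt8 (0.27), followed by P2ry14, Ccl6, Gapt, Cd55, Arsb and Aspa (0.25 to 0.27). Rnase12 stood at 58.9 CPM in cells with a UMI of the 6 genes and 2.38 CPM in cells without. Ccl6, a chemokine gene, stood at 1217 and 131 CPM.

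In the retinoic acid library (6659 cells) the first were Ikzf2, encoding the zinc finger factor Helios (r = 0.26), Ldhc (0.20), Arsb, encoding arylsulfatase B (0.20), Cyp11a1 (0.17) and Ctsh (0.16), followed by Stx3, Prkce, Fut8, Cdkn2a and Oaf (0.10 to 0.12). Arsb and Ctsh were the 2 genes on both lists of 10. Ikzf2 stood at 53.0 CPM in cells with a UMI of the 6 genes and 2.57 CPM in cells without, and at 86.0 CPM in the whole vehicle library against 3.25 CPM in the whole retinoic acid library. By the same measure, r with Camp, Elane and Cpa3 was -0.02, -0.06 and 0.11 in the vehicle library and -0.08, -0.13 and 0.26 in the retinoic acid library, the last resting on 3 cells.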

How the data were processed

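The deposited values were raw UMI counts per gene and cell, made by the authors with Cell Ranger 4.0.0 against mm10 (GRCm38.p4), per the submitters' processing notes, from Chromium 3′ v2 libraries, per the labels' protocols. Barcodes under 1000 UMIs or 500 genes, or over 10% mitochondrial, were removed (310 vehicle, 276 retinoic acid). Counts were summed per library and scaled to CPM. Ratios had 0.5 counts added, with exact binomial intervals, sums had exact Poisson intervals, and shares of cells had Clopper-Pearson intervals. Cells were thinned at random to 5000 UMIs for shares and pairs. Scrublet (scanpy 1.11.5) called 1 and 7 doublets, under 0.5% of cells, so it was taken not to have worked, and no doublets were removed. TMM factors came from edgeR 4.0.16 and median of ratios factors from DESeq2 1.42.0, as alternatives. No replicates existed, so no test was made. Calculations were tested on simulated data. Named genes were the 6 genes, Camp, Elane, Cpa3, members of role lists, and the 10 genes most correlated with the 6 in each library. The genes and lists were chosen with earlier results of these data known.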

Additional observations from a re-analysis of the deposited data

How the results depend on the processing

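The 4 log2 ratios kept their sign under every setting tried. Prg2 was at -1.08 with all deposited barcodes, -1.02 with a 5% mitochondrial limit, -1.08 with TMM, -1.05 with median of ratios scaling and -1.53 with equal weight for every cell. Those scalings added 0.08 and 0.11 to every log2 ratio. Equal weight gave -1.497 for Prg3 and -2.91 for Epx. Without the 1% of cells richest in the genes the ratios were -2.65 (Prg2), -4.28 (Prg3), -4.87 (Epx) and -2.64 (Ear6). Leaving out the richest cell of each library, chosen after the data were seen, gave -2.43, -2.43 and -3.83 for the first 3. Shares of vehicle cells with a UMI of the genes were 11.6% without thinning, 3.69% with at least 2 UMIs and 4.38% at 1000 UMIs, and those of retinoic acid cells 4.45%, 0.526% and 1.19%. Thinning to 1000 UMIs, also chosen afterwards, keeps every cell. Observed over expected cells then came to 0.200 (Camp) and 0 (Elane) in the vehicle and 0.727 and 0.522 in the retinoic acid library, and the log2 ratio of the Camp quartiles to -5.92. At 5000 UMIs without the richest cell that ratio was -3.02. With at least 2 UMIs, vehicle Cpa3 was at 1.497 and retinoic acid Elane at 0.514. The richest 1% held 66.9% of the vehicle UMIs without the highest doublet scores, against 65.7%. Genes at least 2-fold apart numbered 923 at 5 CPM, 133 at 100 CPM and 6081 with no limit. At 20 CPM the median of the receptor list was -0.95 and that of the transcription factors reversed to 0.029 (-0.12 with TMM), where fewer genes were used. Causes of the other changes were not tested. No paired analysis was possible because there was 1 library on each side. Ear1, Ear2 and Il5ra had few UMIs, and the part of depth in this was not tested.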
